A study of Mus musculus with 4 samples.

Results

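This account follows 8 genes of the neural crest and of the glial precursors that the crest gives rise to, in RNA from mouse otic vesicles with and without intact Meis2. They are Foxd3, Tfap2a, Tfap2b, Erbb3, Fabp7, Mia, Cdh19 and Gfra3, taken by name from the deposited table, and all 8 were found among its 34866 genes. The otic vesicle is the epithelial sac from which the inner ear develops. It was collected from C57/BL6 embryos at embryonic day 11.5, with 2 libraries from wild-type embryos (WT 1 and WT 2) and, from Meis2 mutants, 2 more (KO 1 and KO 2). Meis2 encodes a homeodomain transcription factor. The sources used here do not give how its gene was altered, whether in all cells or by a Cre driver, nor how many embryos a library holds. The p-values therefore cover only the variation among these 4 libraries, part of which may be technical. Meis2 transcript itself was present throughout, with 79.0 and 88.7 TPM in the WT and 73.2 and 76.6 TPM in the KO libraries, and a value per gene does not check which part was altered. Levels are in TPM, a unit in which every library adds up to the same total and values are already divided by transcript length, so they can be compared between genes.

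The neural crest is a migratory population that leaves the dorsal neural tube. Its derivatives include the glia of cranial nerves and ganglia, pigment cells and much of the head mesenchyme. The neurons of the cochleovestibular ganglion come mainly from the otic epithelium, while the glia that surround them come from the crest. Foxd3 and the AP-2 factors act early in crest cells, and glial precursors then carry Erbb3, Fabp7 and Cdh19, which are widely used as their markers. Several of these genes are also active elsewhere in the head: the AP-2 factors in surface ectoderm, and Fabp7 in neural tube radial glia.

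All 8 genes were above 0 in every library and passed the filter of a mean of at least 1 TPM. Differences are KO minus WT on the log2(TPM + 1) scale, which understates changes of low genes, and were tested with limma over all 14496 genes above the filter. A gene was called at an adjusted p under 0.05. By this rule 0 of the 8 genes were called, where 0% of all genes tested were called. At an unadjusted p under 0.05 there was 1 of the 8, Mia, against 507 genes or 3.5% of all. Both KO libraries lay above or both below both WT libraries for 4 of the 8 genes, against 29.8% of all genes tested. Of these 4, Mia, Fabp7 and Cdh19 were higher in KO, a pattern found in 19.2% of all genes, and Gfra3 was lower, as were 10.5% of all genes. With median-of-ratios scaling or quantile normalization Cdh19 overlapped and Erbb3 separated as lower, so that 4 of the 8 again did not overlap, beside 28.6% and 28.1% of all genes. The median log2 difference of the 8 was 0.18, beside 0.035 over all genes tested. That list median was -0.025 without KO 1 and 0.35 without KO 2. An exact test of 2 libraries against 2 cannot give a two-sided p below 0.333. The submitters put 18 genes past a false discovery rate of 0.05, and the sources used here do not name them.

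**Figure D1:**
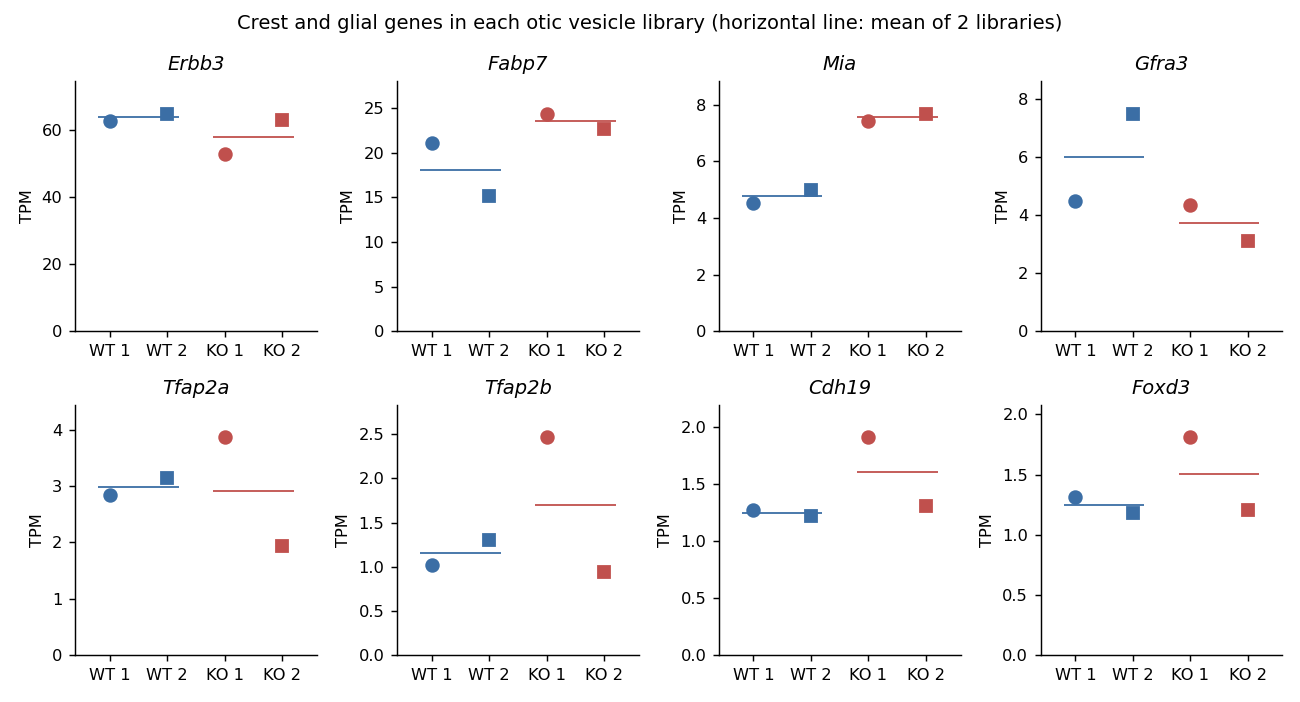
Level of each of the 8 genes in TPM (vertical axes, each from 0) in the 4 libraries, blue for WT and red for KO, with circles for replicate 1, squares for replicate 2 and a line at the mean of 2. Mia sits between 4.53 and 4.998 TPM in WT and between 7.44 and 7.69 TPM in KO, while Foxd3, Tfap2a, Tfap2b and Cdh19 have their highest point in KO 1.

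The levels spanned a wide range. Erbb3 had the highest mean over the 4 libraries, 60.7 TPM, above 79.7% of the genes tested, and Fabp7 followed with 20.8 TPM. Neither overlapped the range of the next gene in the order. Mia (6.16 TPM), Gfra3 (4.85 TPM) and Tfap2a (2.94 TPM) came next, and each overlapped the range of its neighbour. Tfap2b (1.43 TPM), Cdh19 (1.43 TPM) and Foxd3 (1.38 TPM) stood near the filter, above only 4.90 to 5.42% of the genes tested, and their ranges overlapped.

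Mia encodes a small secreted protein first known from melanoma cells and cartilage, and it showed the clearest separation of the genotypes. Mia (ENSMUSG00000089661.9, chromosome 7, 27179742 to 27181157, minus strand, GRCm38) measured 4.53 TPM (WT 1) and 4.998 TPM (WT 2) against 7.44 TPM (KO 1) and 7.69 TPM (KO 2). Both KO libraries were higher than both WT libraries, and the libraries of a genotype lay close together. The mean was 4.76 ± 0.334 TPM for WT and 7.56 ± 0.175 TPM for KO (SD, n = 2 each), a ratio of 1.59. The log2 difference was 0.57 (SE 0.14). Its unadjusted p in the limma fit across all genes was 0.011 and its limma adjusted p was 1.00. The difference was 0.61 for KO 1 minus WT 1 and 0.53 for KO 2 minus WT 2. For Mia alone among the 8 the difference between genotypes exceeded the gap within each genotype, which held for 19.1% of all genes tested. The predicted coding gene Gm21983 overlaps Mia on the same strand and could share its reads; it was at 0.361 TPM in WT 1 and listed at 0 in the other libraries.

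Mia was also set against another crest and glial transcript of the same library. Its ratio to Sox10, a transcription factor of crest glia that the otic epithelium also uses, was 0.0418 (WT 1) and 0.0425 (WT 2) against 0.0745 (KO 1) and 0.0739 (KO 2). Sox10 itself was at 108 and 118 TPM in WT and 99.8 and 104 TPM in KO, lower in both KO libraries. With Mia higher and Sox10 lower, the ratio had to be higher in both KO libraries, so it adds no separate support.

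Mia belongs to a family of 4 genes, and all 4 were tested. Both KO libraries lay above both WT libraries for Mia, Mia3 and Otor, against 19.2% of all genes. Otor, which encodes otoraplin of the inner ear and cartilage and is named here after its values were seen, was at 0.483 and 1.24 TPM in WT and at 2.10 and 2.14 TPM in KO. Its log2 difference was 0.78 (SE 0.29, adjusted p = 1.00 by limma). Mia3, a large membrane protein of collagen export, was at 147 and 132 TPM in WT and at 150 and 152 TPM in KO, a narrow gap. With median-of-ratios scaling or quantile normalization only 2 of the 4 stayed separate and higher, beside 14.2% and 12.8% of all genes. Mia2 overlapped between the genotypes, with 49.3 and 49.98 TPM in WT and 45.6 and 51.1 TPM in KO. No member of the family passed the test over all genes.

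The bases just before the Mia start are printed because the gene separated the genotypes, those of Fabp7 because its difference above 0 was the next largest, and those of Foxd3 because it held letters of the Meis binding motif. The sequences are RefSeq promoter entries (GRCm38.p6), 5′ to 3′ on the gene's strand, ending where the first annotated exon begins. Capitals mark the Meis motif TGACAG, read here on the opposite strand.
Mia (chr7:27181158-27181399, minus strand): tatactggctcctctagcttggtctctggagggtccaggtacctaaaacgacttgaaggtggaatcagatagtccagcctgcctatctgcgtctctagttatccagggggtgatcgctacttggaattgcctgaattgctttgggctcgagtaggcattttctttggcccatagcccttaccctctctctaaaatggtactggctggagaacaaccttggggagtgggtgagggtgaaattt
Fabp7 (chr10:57784673-57784880, plus strand): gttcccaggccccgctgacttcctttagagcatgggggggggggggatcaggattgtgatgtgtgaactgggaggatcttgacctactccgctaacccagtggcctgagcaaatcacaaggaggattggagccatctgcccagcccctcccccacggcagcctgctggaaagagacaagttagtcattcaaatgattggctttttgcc
Foxd3 (chr4:99656049-99656298, plus strand): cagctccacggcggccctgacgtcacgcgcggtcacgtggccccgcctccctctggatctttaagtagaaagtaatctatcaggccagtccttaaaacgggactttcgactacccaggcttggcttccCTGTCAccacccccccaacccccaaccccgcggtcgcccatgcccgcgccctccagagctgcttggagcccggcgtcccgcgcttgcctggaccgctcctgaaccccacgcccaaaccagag
Entries were found for 5 of the 8 genes, with 6 starts in all. In the 250 bases before each start, both strands were searched for TGACAG, for the Sox motifs ACAAAG and ACAATG and for the AP-2 motif GCCNNNGGC. Foxd3 alone held a match, 1 TGACAG from 122 to 117 bases before its start. Over all 32851 promoter entries, 15.9% held TGACAG, 16.5% ACAAAG, 10.7% ACAATG and 13.7% GCCNNNGGC. The Foxd3 window was also rich in bases G and C, with 65.6% and 21 CpG, beside 50.4% and 4 CpG for Mia and a median of 52.4% and 6 CpG over all entries.

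Fabp7 encodes the brain fatty acid binding protein, a marker of radial glia and of early Schwann cell precursors. Fabp7 (ENSMUSG00000019874.11, chromosome 10, 57784881 to 57788450, plus strand) measured 21.1 TPM (WT 1) and 15.1 TPM (WT 2) against 24.4 TPM (KO 1) and 22.7 TPM (KO 2). Both KO libraries were above both WT libraries, but WT 1 lay nearer to KO 2 than to WT 2. The means were 18.1 ± 4.23 TPM for WT and 23.5 ± 1.20 TPM for KO (SD, n = 2 each), and the log2 difference was 0.38 (SE 0.18, adjusted p = 1.00 by limma). Without WT 2 it was 0.15 and without WT 1 it was 0.61. The related Fabp5 was at 240 and 294 TPM in WT and 215 and 270 TPM in KO, and Fabp3 at 17.4 and 13.0 TPM in WT and 16.7 and 12.3 TPM in KO, and both overlapped. Slc1a3, a glutamate transporter of radial glia, measured 21.9 TPM (WT 1) and 16.1 TPM (WT 2) against 23.6 TPM (KO 1) and 21.2 TPM (KO 2). Its lowest library was WT 2, as for Fabp7 and for 28.1% of all genes tested. Only 3 of the 9 hindbrain genes looked at, Slc1a3 among them, passed the filter. The part of radial glia in the Fabp7 values was not tested.

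Cdh19, a type II cadherin of crest-derived glia, stood low in every library. Cdh19 (ENSMUSG00000047216.8, chromosome 1, 110888326 to 110977584, minus strand) measured 1.28 TPM (WT 1) and 1.22 TPM (WT 2) against 1.91 TPM (KO 1) and 1.30 TPM (KO 2). KO 1 was high, and KO 2 lay only just above WT 1. The log2 difference was 0.20 (SE 0.25, adjusted p = 1.00 by limma), which became 0.04 without KO 1 and 0.37 without KO 2. With median-of-ratios scaling or quantile normalization the genotypes overlapped. Of the 12 type II cadherin genes looked at, 6 were tested, all 6 had a difference above 0, and 61.6% of all genes tested did so (38.4% were below 0). The most abundant were Cdh11 of mesenchyme, at 115 and 103 TPM in WT and 137 and 113 TPM in KO, Cdh24, at 21.1 and 24.9 TPM in WT and 23.9 and 30.5 TPM in KO, and Cdh6, at 8.47 and 11.5 TPM in WT and 9.80 and 13.5 TPM in KO. All 3 overlapped between the genotypes. Of the 6 tested, 1 did not, against 29.8% of all genes.

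**Figure D2:**
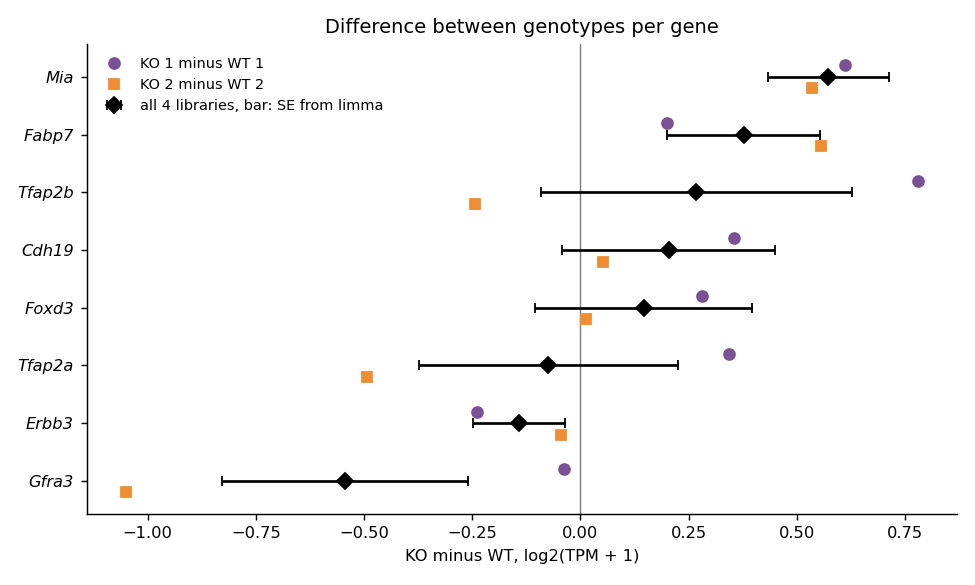
Difference KO minus WT in log2(TPM + 1) (horizontal axis) for each of the 8 genes, as the estimate over 4 libraries with its SE (diamonds) and between the libraries that share a number (circles for 1, squares for 2). The values for Mia, 0.61 and 0.53, lie close together, and those for Tfap2a and Tfap2b lie on opposite sides of 0.

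The 3 transcription factors had their highest value in KO 1. Foxd3, a forkhead factor that marks premigratory crest and maintains multipotent crest and glial precursors, is a gene of 1 exon (ENSMUSG00000067261.4, chromosome 4, 99656299 to 99658622, plus strand). It measured 1.31 TPM (WT 1) and 1.18 TPM (WT 2) against 1.81 TPM (KO 1) and 1.20 TPM (KO 2). KO 1 was high, and KO 2 lay between the WT libraries. The log2 difference was 0.15 (SE 0.25, adjusted p = 1.00 by limma), and -0.03 without KO 1.

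Tfap2b, an AP-2 factor of crest, surface ectoderm and sympathetic neurons, spread most among the 3 factors. Tfap2b (ENSMUSG00000025927.13, chromosome 1, 19208914 to 19238576, plus strand) measured 1.02 TPM (WT 1) and 1.30 TPM (WT 2) against 2.47 TPM (KO 1) and 0.943 TPM (KO 2). The KO libraries held both the highest and the lowest value. Its log2 difference was 0.27 (SE 0.36, adjusted p = 1.00 by limma), 0.78 for KO 1 minus WT 1 and -0.24 for KO 2 minus WT 2. Tfap2a (ENSMUSG00000021359.16, chromosome 13, 40715302 to 40738376, minus strand), needed for crest and craniofacial development, measured 2.83 TPM (WT 1) and 3.14 TPM (WT 2) against 3.86 TPM (KO 1) and 1.94 TPM (KO 2). Again both extremes were KO libraries, and the log2 difference was -0.07 (SE 0.30, adjusted p = 1.00 by limma). It was 0.29 without KO 2 and -0.44 without KO 1. Antisense genes overlap Tfap2a, and the sources used here do not say whether the authors' quantification used strand, so reads of the 2 strands may be mixed.

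The other AP-2 and Foxd genes spanned levels from 0 upward. Tfap2c was at 1.11 and 1.21 TPM in WT and 1.01 and 1.38 TPM in KO, without the KO 1 peak of Tfap2a and Tfap2b. Tfap2d and Tfap2e were listed at 0 in 3 of the 4 libraries each. Foxd1, a factor of head mesenchyme, was more abundant than Foxd3, with 15.7 and 11.5 TPM in WT and 19.9 and 14.1 TPM in KO. Foxd2 was at 4.30 and 4.77 TPM in WT and 6.24 and 4.99 TPM in KO, and like Foxd3 both had their highest value in KO 1. Foxd4 was listed at 0 in all 4 libraries.

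Over the 8 genes, KO 1 held the highest value of 5, while it held the highest value of 28.7% of all genes tested. Of 11 further crest transcription factors tested, 10 were highest in KO 1 and 0 were called by limma, with 9 differences above 0 and a median of 0.13. Twist1, which is also a factor of head mesenchyme, was at 157 and 126 TPM in WT and 180 and 132 TPM in KO, and Sox9 at 149 and 108 TPM in WT and 157 and 130 TPM in KO. Sox10 was the exception, at 108 and 118 TPM in WT and 99.8 and 104 TPM in KO, lower in both KO libraries (log2 difference -0.15, SE 0.076, adjusted p = 1.00 by limma).

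Among markers of neighbouring tissues, those of mesenchyme were mostly highest in KO 1, while 0 of 11 otic and 0 of 14 neuron genes tested were. Surface ectoderm was divided: 0 of the 2 genes tested were highest in KO 1. Krt5, Krt14, Krt17, Trp63 and Grhl3, all below the filter, were each highest there, at 0.342 to 3.28 TPM. Of 13 periotic mesenchyme genes tested, 10 were highest in KO 1, and their summed level was 764 and 637 TPM in WT and 1051 and 743 TPM in KO. Col1a2, a collagen chain, was at 147 and 109 TPM in WT and 251 and 145 TPM in KO, Prrx1, a mesenchymal homeobox gene, at 125 and 96.8 TPM in WT and 161 and 122 TPM in KO, and Lum, the proteoglycan lumican, at 24.2 and 15.7 TPM in WT and 42.2 and 31.6 TPM in KO. Surface ectoderm, where the AP-2 genes are also active, gave a summed level over 7 genes of 14.4 and 10.3 TPM in WT and 18.0 and 5.82 TPM in KO, the same highest and lowest library as Tfap2a and Tfap2b. Krt5, the keratin of basal epidermis, was at 3.28 TPM in KO 1 and at 0.149, 0.0544 and 0.112 TPM in WT 1, WT 2 and KO 2. Of the more abundant ectoderm genes, Perp was at 12.9 and 6.84 TPM in WT and 9.95 and 4.15 TPM in KO, and Krt15 at 0.934 and 2.78 TPM in WT and 1.61 and 1.13 TPM in KO. The part of mesenchyme and ectoderm in the values of Foxd3, Cdh19 and the AP-2 genes was not tested. In RNA from whole dissected tissue, more cells of a type and more RNA per cell cannot be told apart.

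**Figure D3:**
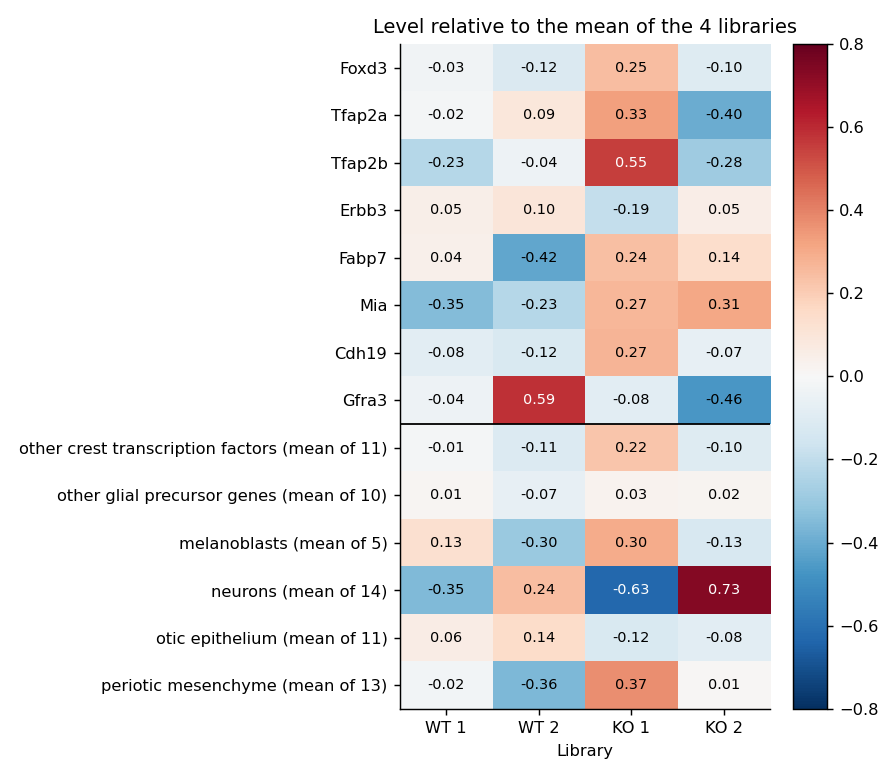
Level in each library (columns) relative to the mean of the 4 libraries, in log2(TPM + 1), for the 8 genes (above the line) and for the means of 6 marker lists (below it), red for above and blue for below the mean. KO 1 is at 0.55 for Tfap2b and 0.37 for periotic mesenchyme, and neuron genes run from -0.63 in KO 1 to 0.73 in KO 2.

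Erbb3 encodes a receptor of neuregulins that has little kinase activity of its own and signals together with Erbb2, and crest-derived Schwann cell precursors need it to survive. Erbb3 (ENSMUSG00000018166.8, chromosome 10, 128567523 to 128589652, minus strand) measured 62.6 TPM (WT 1) and 64.8 TPM (WT 2) against 52.8 TPM (KO 1) and 62.8 TPM (KO 2). KO 1 was low, opposite to the factors above, and the other 3 libraries lay together. The means were 63.7 ± 1.57 TPM for WT and 57.8 ± 7.03 TPM for KO (SD, n = 2 each), with a log2 difference of -0.14 (SE 0.11, adjusted p = 1.00 by limma), which shrank to -0.02 without KO 1 and was -0.26 without KO 2. With median-of-ratios scaling or quantile normalization both KO libraries lay just below both WT libraries. The level of Erbb3 was 47.6, 54.8, 29.2 and 52.2 times that of Foxd3 in WT 1, WT 2, KO 1 and KO 2, and its ratio to Sox10 stayed between 0.529 and 0.604.

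Among the other neuregulin pathway genes, 6 of the 8 including Erbb3 were tested and 0 were called. The partner receptor Erbb2 was at 24.5 and 23.4 TPM in WT and at 27.4 and 27.4 TPM in KO, higher in both KO libraries, with a log2 difference of 0.19 (SE 0.084, adjusted p = 1.00 by limma). The Erbb3 to Erbb2 ratio was 2.56 and 2.77 in WT and 1.93 and 2.29 in KO, lower in both KO libraries. The ligand Nrg1 was at 5.12 and 4.99 TPM in WT, 4.49 TPM in KO 1 and 11.4 TPM in KO 2. Nrg2 was also high in KO 2 alone, at 3.27 TPM, and at most 0.394 TPM elsewhere. Its mean of 1.03 TPM passed the filter only with KO 2 included. KO 2 was the library with the highest summed level of 14 neuron genes, 967 TPM, against 394 TPM in WT 1, 663 TPM in WT 2 and 320 TPM in KO 1. Neurons are a main source of neuregulin in peripheral nerves, and their part in these ligand values was not tested.

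Gfra3 encodes the receptor of artemin, which signals through Ret and guides crest-derived sensory and sympathetic neurons, and it is also found on Schwann cell precursors. Gfra3 (ENSMUSG00000024366.7, chromosome 18, minus strand) measured 4.49 TPM (WT 1) and 7.49 TPM (WT 2) against 4.34 TPM (KO 1) and 3.10 TPM (KO 2). Both KO libraries were below both WT libraries, although KO 1 and WT 1 differed little and WT 2 stood apart. The means were 5.99 ± 2.12 TPM for WT and 3.72 ± 0.877 TPM for KO (SD, n = 2 each). The log2 difference was -0.54 (SE 0.28, adjusted p = 1.00 by limma), made up of -0.04 for KO 1 minus WT 1 and -1.05 for KO 2 minus WT 2. It was -0.23 without WT 2, -0.86 without WT 1 and -0.35 without KO 2. The ratio of Gfra3 to Elavl4, a neuronal RNA-binding protein gene, was 0.245 (WT 1) and 0.242 (WT 2) against 0.351 (KO 1) and 0.0557 (KO 2).

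Gfra3 was the 1 gene of the 8 whose levels spanned at least 1 on the log2(TPM + 1) scale, so the coding genes with the most similar profile over the 4 libraries were sought for it. As a plain ratio of highest to lowest TPM, Tfap2b spanned more, 2.61 against 2.41 for Gfra3. By root mean square distance of the centred log2 values among 13503 coding genes, the nearest were Ncf4 (distance 0.037), at 4.09 and 7.09 TPM in WT and 3.998 and 3.07 TPM in KO, and Cblc (distance 0.045), at 3.303 and 5.50 TPM in WT and 2.95 and 1.96 TPM in KO. With 4 points per profile and many genes searched, close matches are easily found.

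All 9 ligands and receptors of the GDNF family were tested and 0 were called. Groups did not overlap for 6 of the 9, against 29.8% of all genes tested, with 4 lower in KO (Gdnf, Pspn, Gfra2 and Gfra3) and 2 higher (Gfra4 and Ret). The members beyond Gfra1, Pspn, Gfra3 and Gfra4 are named after their values were seen. Gdnf, the founding ligand, was at 1.58 and 2.76 TPM in WT and 0.785 and 0.960 TPM in KO, and its log2 difference was -0.74 (SE 0.29, adjusted p = 1.00 by limma). Gfra2, the neurturin receptor, was at 2.67 and 2.73 TPM in WT and 1.77 and 1.80 TPM in KO, and Pspn, the ligand persephin, at 5.47 and 4.40 TPM in WT and 4.25 and 2.66 TPM in KO. These 3 were lower in both KO libraries.

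In the other direction, Gfra4, the persephin receptor, was at 3.25 and 2.93 TPM in WT and 5.42 and 4.60 TPM in KO, with a log2 difference of 0.55 (SE 0.17, adjusted p = 1.00 by limma). Ret, the shared signalling receptor, was at 3.22 and 2.44 TPM in WT and 4.93 and 3.33 TPM in KO. With quantile normalization 1 of the 9 genes was separate and higher, beside 12.8% of all genes. In that setting 4 of the 9 were separate and lower, beside 15.3% of all genes. Gfra1, the receptor of GDNF, was the most abundant of the family, at 49.6 and 37.9 TPM in WT and 56.7 and 48.5 TPM in KO, and overlapped. Artn, the ligand of Gfra3, overlapped too, at 2.91 and 3.66 TPM in WT and 2.19 and 3.54 TPM in KO.

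**Figure D4:**
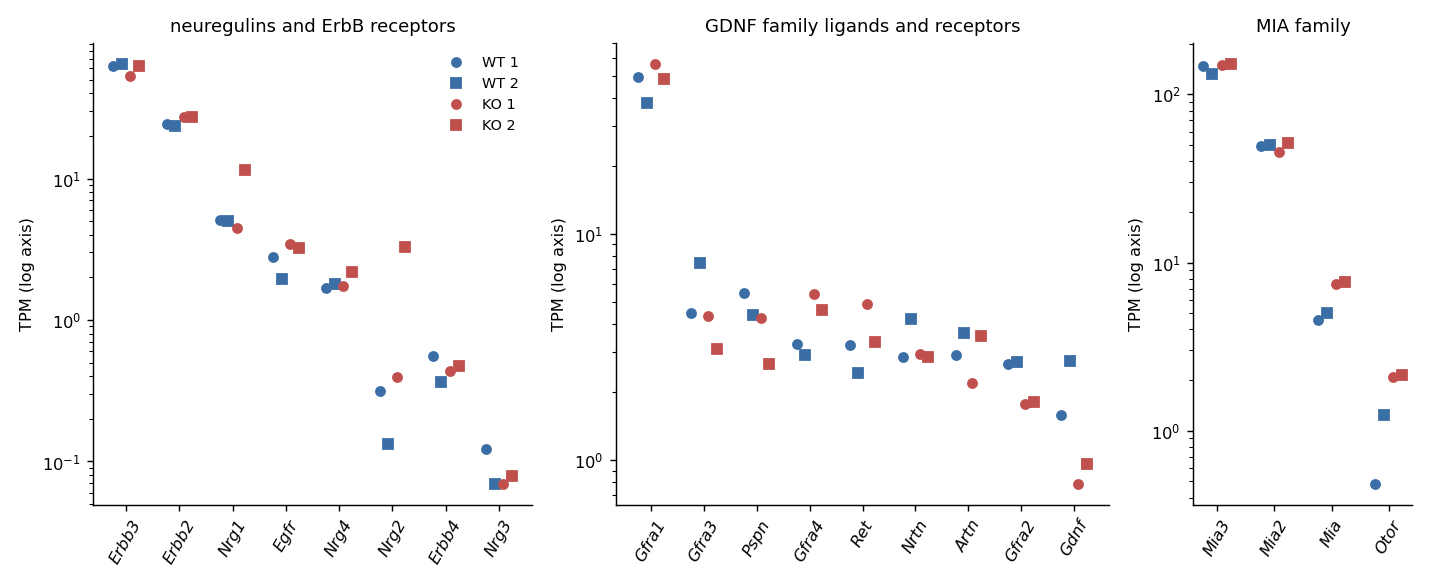
Levels in TPM (log axes) of the neuregulin and ErbB, GDNF and MIA family genes in the 4 libraries, blue for WT and red for KO, circles for replicate 1 and squares for replicate 2. Nrg1 and Nrg2 stand high in KO 2 alone (11.4 and 3.27 TPM). Among genes tested, the colours do not overlap for 3 of 6, 6 of 9 and 3 of 4 in these families, against 29.8% of all genes. Mia, Otor, Gfra2, Gfra4 and Gdnf are among them.

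Among further genes of glial precursors, the genotypes did not overlap for 2 of 10 tested, against 29.8% of all genes. Of 12 looked at, 10 were tested, 4 had a difference above 0 and 6 below, with a median of -0.03 beside 0.035 over all genes, and 0 were called. Ngfr, the low-affinity neurotrophin receptor of crest and glia, was at 22.3 and 28.9 TPM in WT and 19.3 and 30.0 TPM in KO, and followed the replicate numbers. Serpine2, a secreted protease inhibitor, was at 70.8 and 50.6 TPM in WT and 63.0 and 54.0 TPM in KO, and Cnp, a myelin enzyme, at 24.7 and 24.2 TPM in WT and 24.9 and 23.2 TPM in KO. These 3 overlapped between the genotypes.

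Defining genes of the otic vesicle were high in all 4 libraries, as the tissue label states. Oc90, the main otoconial matrix protein, was at 912 and 724 TPM in WT and 561 and 602 TPM in KO, Epcam of epithelia at 210 and 198 TPM in WT and 180 and 188 TPM in KO, and Lmx1a, an otic homeobox gene, at 71.8 and 73.9 TPM in WT and 59.8 and 60.2 TPM in KO. Otic genes summed over 11 members stood at 1652 and 1486 TPM in WT and at 1239 and 1321 TPM in KO. The largest part of each sum was Oc90. The KO libraries with more Mia, Fabp7 and Cdh19 thus held less of the otic genes in sum. Of the 11 otic genes, 8 had a difference below 0, as did 38.4% of all genes tested, and 0 were called. Their part in the differences of the 8 genes was not tested.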

How the data were processed

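The deposited table holds TPM per gene, a length-corrected abundance that sums to 1000000 in each library. Salmon 0.9.1 and GRCm38 are named per the submitters' processing notes; the sources used here do not give the annotation release or how transcripts were summed. The values look like means, of 4 in KO 1 and both WT libraries and of 3 in KO 2, since multiplying by these numbers gave whole printed steps for 100% of values above 0 (tolerance 0.02 of a step). TPM keeps no depth, so depth is unknown.

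Gene IDs were matched to GENCODE M21 (GRCm38), which named 34582 of 34866. Those averaging at least 1 TPM were tested on log2(TPM + 1) by limma 3.58.1 (R 4.3.3), using a mean-variance trend; p-values are two-sided and were adjusted by Benjamini-Hochberg, with 0.05 as threshold; the fit was tested on simulated data. The genes, marker lists and tests were chosen with earlier results of these data known. Named from each list are its 3 most abundant genes and the tested one with the smallest p; others were chosen after their values were seen, and a few genes the rule names are not reported here. Alternatives were pseudocounts of 0.1 and 5 TPM, a filter at 5 TPM or none, 2 other scalings, totals without mitochondrial and globin genes, a replicate block and leaving out each library.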

Additional observations from a re-analysis of the deposited data

How the results depend on the processing

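With limma, 0 of the 8 genes passed the threshold in any setting run. Over all genes, 0 were called with all 4 libraries in each setting, and 0 to 10 with a library left out: 2 without KO 1, 10 without KO 2 and 0 without WT 1 or WT 2; the lone library of a genotype is then assumed to vary like the others. The direction of all 8 held in the settings with all 4 libraries. With a library left out, Foxd3 ran from -0.030 to 0.32, Tfap2a from -0.44 to 0.29 and Tfap2b from -0.15 to 0.69, so each changed sign in 1 of 4 cases, and Mia ran from 0.51 to 0.63. The median of the 8 ran from -0.025 to 0.35, and was 0.38 with a mean of at least 5 TPM, which leaves 3 genes. With a replicate block the differences stay the same by construction, 0 genes were called and the smallest adjusted p was 0.41, with 1178 genes at an unadjusted p under 0.05 against 507. The deviations of same-numbered libraries from their group means correlated at 0.42 over genes; the labels give no shared litter or day, so the numbers were not taken as pairs. Median-of-ratios scaling and quantile normalization moved the share of all genes with a difference above 0 from 61.6% to 51.7% and 50.2%. Depth is unknown, so how far counting error limits Foxd3, Tfap2b and Cdh19, near 1 TPM, cannot be given.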

Other observations

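Pigment cell precursors are another crest lineage, and their genes were measurable in these vesicles. Of 7 melanoblast genes, 5 were tested with limma and 0 were called, and for 0 of the 5 did the genotypes separate, against 29.8% of all genes tested. Dct, an enzyme of melanin synthesis, measured 22.8 TPM (WT 1) and 9.70 TPM (WT 2) against 28.1 TPM (KO 1) and 14.4 TPM (KO 2), so the libraries numbered 1 were high in both genotypes. Pmel, a protein of the pigment granule, had the same order, with 20.7 and 14.2 TPM in WT and 22.2 and 17.0 TPM in KO. Tyr, the rate-limiting enzyme of melanin synthesis, was at 1.80 and 1.46 TPM in WT and 3.18 and 1.78 TPM in KO. Kit, the receptor that melanoblasts need, was even, at 16.5 and 18.3 TPM in WT and 17.8 and 16.7 TPM in KO.

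Among neuron genes Prph, a filament of peripheral neurons, was at 7.28 and 5.96 TPM in WT, against 9.24 and 10.4 TPM in KO, while Neurod1 (WT 35.7 and 68.1 TPM, KO 35.5 and 95.3 TPM), Tubb3 (WT 109 and 211 TPM, KO 85.2 and 296 TPM) and Nefm (WT 58.2 and 78.3 TPM, KO 43.8 and 144 TPM) overlapped between the genotypes. Of 9 hindbrain genes looked at, 3 were tested and 0 were called. Pax6, Olig3, Hes3, Sox1, Sox3 and Egr2 were below the filter, at no more than 1.11 TPM in any library. Zic1 was at 106 and 77.2 TPM in WT, against 146 and 129 TPM in KO, and the tissue it came from was not tested. Nkx6-1 was at 3.64 and 1.61 TPM in WT and 2.19 and 1.37 TPM in KO.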
